A study of Mus musculus with 9 samples.

Results

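Among the genes of sprouting retinal vessels are those that mark tip cells and those of the Notch pathway. The 9 examined here were Esm1, Dll4, Jag1, Notch1, Notch4, Hey1, Hes1, Unc5b, and Robo4, taken by gene symbol from the 54532 genes counted in each retina, and all 9 passed the filter on low counts. The retinas came from 9 wild-type C57BL/6 mice, 3 per group, and were sequenced in bulk at P17. Control mice stayed in room air, and the sample labels give DMSO for them. Oxygen-induced retinopathy (OIR) mice, in which a period of hyperoxia is followed by return to room air and an ischemic, sprouting retina, received DMSO vehicle by intraocular injection at P12. Treated OIR mice received the study's small-molecule HIF inhibitor at P12, at a dose written as 70 ng/μL in the description of the treatment and as 70 ng in the sample labels. Mice are named by the numbers in their labels, namely 1, 6, and 7 (control), 3, 5, and 6 (OIR), and 2, 5, and 10 (treated OIR).

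At the front of a vascular sprout, a tip cell responds to VEGF and displays the ligand DLL4, which activates Notch receptors on the neighboring stalk cells and holds them back from becoming tip cells. JAG1 is a competing ligand, and the cleaved receptor acts in the nucleus with RBPJ to switch on repressors of the HES and HEY families. Tip cells also secrete ESM1 (endocan) and carry guidance receptors such as UNC5B, while ROBO4 is an endothelial receptor that binds UNC5B. Several of these genes also work outside vessels, and Notch1 and Hes1 are used by retinal progenitors and Müller glia.

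Total counts were 16028731 to 27213184 per mouse, and values below are CPM (counts scaled to library size) after TMM correction unless stated. No marker in the lists of 18 endothelial genes, 10 Müller glial genes, and 13 retinal neuron genes was at 0 in any mouse. Treated OIR mouse 2 stood apart, since 13 lens genes held 10.963% of its counts and at most 0.101% of those of any other mouse. In the same mouse the mean log2 CPM of the endothelial list was 2.96, against 4.56 and 4.51 in treated OIR mice 5 and 10. OIR mouse 6 had an endothelial mean of 2.79, against 4.33 and 3.81 in OIR mice 3 and 5. A list of 6 genes of the retinal injury response (Gfap, Edn2, Lcn2, Serpina3n, Fgf2, Osmr) was highest in these same mice, with means of 8.27 in treated OIR mouse 2 and 7.98 in OIR mouse 6 and a range of 3.88 to 6.85 in the other 7 retinas. Values that moved most when mouse 2 was left out are also given without it.

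Per gene length, Hes1 and Jag1 were the most abundant of the 9 genes in control retinas and Esm1 was the least abundant. Control levels in RPKM (read counts scaled for gene length and library size) averaged 14.1 for Hes1, 12.5 for Jag1, 7.69 for Hey1, 2.78 for Unc5b, 1.48 for Notch1, 1.25 for Robo4, 1.24 for Notch4, 0.856 for Dll4, and 0.269 for Esm1. The control mice of Hes1 and Jag1 overlapped, as did those of Notch1 and Robo4 and those of Robo4 and Notch4, so these neighbors cannot be ordered beyond the spread of 3 mice. Every control value of the nuclear effectors and of Jag1 was above every control value of the receptors. These levels are sums over whole retinas, in which fewer cells of a type and less RNA per cell cannot be told apart.

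**Figure D1:**
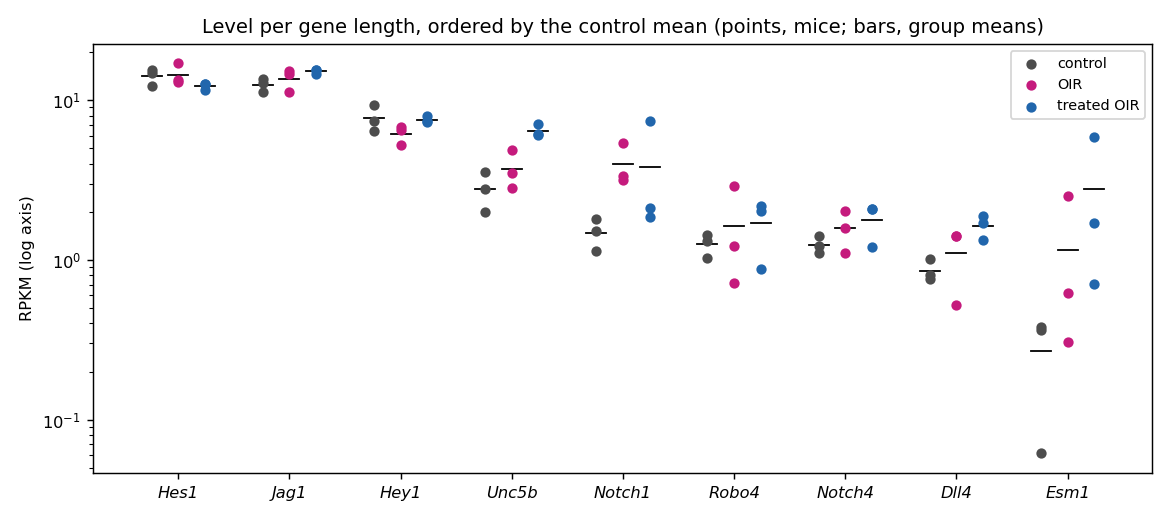
RPKM on a log axis for the 9 genes, ordered by their control mean, with 1 point per mouse and bars at group means (3 mice per group). Hes1 and Jag1 lie highest, at control means of 14.1 and 12.5, and Esm1 lies lowest, at 0.269, with the widest scatter.

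The first question was which of these genes differed between OIR and control retinas. None of the 9 passed an adjusted p of 0.05 when edgeR's quasi-likelihood test was fitted to the 9 mice together, a fit that called 0.941% of the 17540 genes tested, and 1 of the 9, Notch1, had an unadjusted p below 0.05 (23.8% of all genes). Notch1 was also the sole member whose OIR and control mice did not overlap, being higher in OIR, as were 15.9% of all genes tested. The median log2 fold change was 0.37 over the 9 genes, 0.05 over the 18 endothelial markers, and 0.03 over all genes. By other tools Notch1 was the only member called, with an adjusted p of 5.24e-07 in DESeq2 fitted to the 2 groups alone, 0.0255 in DESeq2 fitted to all 9 mice, and 0.0297 in limma-voom. These tools called 16.2%, 13.5%, and 13.1% of all genes tested.

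Treated OIR retinas were compared with the same control mice, so this comparison and the first are not independent. Again 0 of 9 were called by edgeR, where 0.0228% of all genes were, while 4 (Esm1, Dll4, Notch1, and Unc5b) had an unadjusted p below 0.05, against 18.6% of all genes. In 5 of 9 (these 4 and Jag1), every treated OIR mouse was above every control mouse, which held in that direction for 12.8% of all genes. DESeq2 called 2 of the 9, Esm1 and Unc5b, whether fitted to all mice or to the 2 groups, and limma-voom called Unc5b alone. DESeq2 called 5.47% of all genes over all mice and 2.38% over the 2 groups, and limma-voom called 5.28%. The median log2 fold change of the 9 genes was 0.53, and 0.75 without treated OIR mouse 2, against 0.01 and -0.01 over all genes. Over the 18 endothelial markers it was 0.31, and 0.73 without that mouse, so the shift was not particular to the 9 genes.

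For the effect of the HIF inhibitor itself, treated OIR retinas were compared with vehicle-injected OIR retinas, which are also the OIR mice of the first comparison. None of the 9 genes was called by edgeR, DESeq2, or limma-voom, which called 0%, 0.214%, and 0.0057% of all genes over all 9 mice. On the 2 groups alone DESeq2 also called none of the 9, and 0.454% of all genes. Of the 9, 1 (Unc5b) had an unadjusted p below 0.05 (4.69% of all genes). Groups did not overlap for Unc5b and Hey1, both higher with the HIF inhibitor, nor for Hes1, which was lower, and such separation was seen in 3.74% of all genes upward and 5.39% downward. The median log2 fold change was 0.19 over the 9 genes, and 0.34 without treated OIR mouse 2, against 0.01 over all genes in each fit. Over the 18 endothelial markers it was 0.47, and 0.89 without that mouse, above the 9 genes in both fits.

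**Figure D2:**
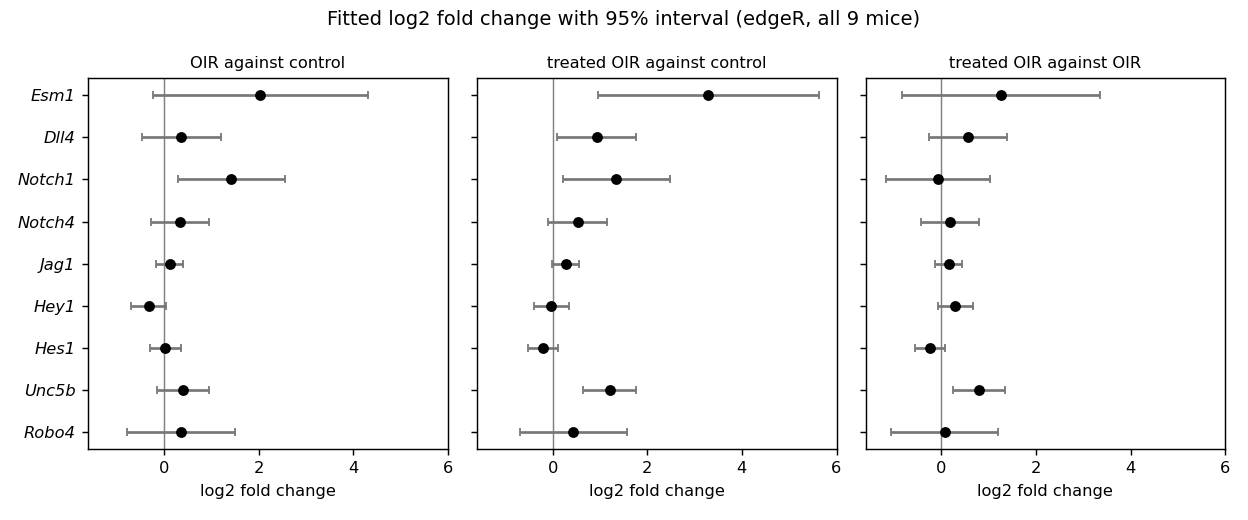
Fitted log2 fold changes (points) and 95% intervals (bars) of the 9 genes in the 3 comparisons, from edgeR over all 9 mice. The interval lies above 0 for Notch1 in OIR against control, for Esm1, Dll4, Notch1, and Unc5b in treated OIR against control, and for Unc5b alone in treated OIR against OIR.

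Esm1 (ENSMUSG00000042379, chromosome 13, 113209659 to 113218098, GRCm38) encodes endocan, a proteoglycan secreted by tip cells. Its values were 0.768, 0.793, and 0.129 CPM in control mice 1, 6, and 7, then 0.642, 1.31, and 5.26 CPM in OIR mice 3, 5, and 6, and 12.4, 1.47, and 3.55 CPM in treated OIR mice 2, 5, and 10. OIR mouse 6 and treated OIR mouse 2 were the highest of their groups, OIR mouse 3 lay among the control mice, and all treated OIR mice were above all control mice. These values rested on 2 to 22 reads in control mice and on 195 reads in the highest mouse, and within the OIR mice they ranged from 12 to 117 reads. The log2 fold change was 2.04 in OIR against control (SE 1.01, 95% interval -0.24 to 4.31, edgeR adjusted p = 0.255), and 0.74 without OIR mouse 6. Against control, treated OIR mice differed by 3.29 (SE 1.03, 95% interval 0.97 to 5.62, edgeR adjusted p = 0.175), and 2.10 without treated OIR mouse 2. DESeq2 on these 2 groups gave 3.32 with an adjusted p of 0.0120, and limma-voom gave 1.79 with an adjusted p of 0.225. Between treated OIR and OIR mice the difference was 1.26 (SE 0.93, 95% interval -0.83 to 3.35), 0.09 without treated OIR mouse 2 and 2.56 without OIR mouse 6, so its size was set by these retinas.

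Dll4 (ENSMUSG00000027314, chromosome 2, 119325784 to 119335962) encodes the Notch ligand of tip cells. It was measured at 3.88, 2.92, and 3.09 CPM in control mice 1, 6, and 7, at 5.40, 5.41, and 2.02 CPM in OIR mice 3, 5, and 6, and at 5.14, 7.24, and 6.53 CPM in treated OIR mice 2, 5, and 10. OIR mouse 6 was the lowest of all 9 retinas and the other OIR mice were above every control mouse, whereas the treated OIR mice did not overlap control. Fitted by edgeR, the log2 fold change was 0.37 in OIR against control (SE 0.37, 95% interval -0.46 to 1.20), 0.93 in treated OIR against control (SE 0.37, 95% interval 0.10 to 1.76, edgeR adjusted p = 0.230), and 0.56 in treated OIR against OIR (SE 0.36, 95% interval -0.26 to 1.38). Without OIR mouse 6 the first was 0.71 and the last 0.22, and without OIR mouse 5 the first was 0.16.

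Jag1 (ENSMUSG00000027276, chromosome 2, 137081456 to 137116644), the other ligand, varied little. Control mice 1, 6, and 7 had 65.1, 78.5, and 74.4 CPM, OIR mice 3, 5, and 6 had 88.2, 84.4, and 65.2 CPM, and treated OIR mice 2, 5, and 10 had 89.8, 90.5, and 84.2 CPM. All treated OIR mice were above all control mice, while OIR mouse 6 lay at the lower end of control. The log2 fold change was 0.13 in OIR against control (SE 0.13, 95% interval -0.16 to 0.41), 0.28 in treated OIR against control (SE 0.13, edgeR adjusted p = 0.272), and 0.15 in treated OIR against OIR (SE 0.13, 95% interval -0.13 to 0.44). Per length, Dll4 was at 0.0470 to 0.121 times the level of Jag1 over the 9 retinas, with the lowest ratio in OIR mouse 6 and the highest in treated OIR mouse 5.

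Notch1 (ENSMUSG00000026923, chromosome 2, 26457903 to 26516663) encodes a receptor shared by vessels, glia, and progenitors. Its values were 21.5, 25.6, and 16.1 CPM in control mice 1, 6, and 7, then 45.1, 47.9, and 77.1 CPM in OIR mice 3, 5, and 6, and 105, 29.9, and 26.5 CPM in treated OIR mice 2, 5, and 10. Every OIR and treated OIR mouse was above every control mouse, and treated OIR mice 5 and 10 lay between the control and OIR mice while mouse 2 was the highest of all. Fitted by edgeR, the log2 fold change was 1.42 in OIR against control (SE 0.50, 95% interval 0.29 to 2.56, edgeR adjusted p = 0.138). Without treated OIR mouse 2, which enters this comparison through the shared estimate of spread, it was 1.40 with an edgeR adjusted p of 0.00756, and that fit called 12.5% of all genes. Notch1 belongs to a set of OIR genes that the study chose on these samples, so its direction is not independent evidence. In treated OIR against control the log2 fold change was 1.35 (SE 0.50, edgeR adjusted p = 0.219), and 0.42 without mouse 2. Set against the OIR mice, treated OIR mice differed by -0.07 (SE 0.49, 95% interval -1.18 to 1.03), and -0.98 without mouse 2 (edgeR adjusted p = 0.204). Notch1 overlaps 0610009E02Rik and Gm13568 on the other strand and Mir6996, and none of these had more than 50 reads in a mouse.

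Notch4 (ENSMUSG00000015468, chromosome 17, 34564268 to 34588503) encodes the Notch receptor that is largely limited to endothelium. Control mice 1, 6, and 7 had 9.78, 8.87, and 11.3 CPM, OIR mice 3, 5, and 6 had 16.4, 12.7, and 8.95 CPM, and treated OIR mice 2, 5, and 10 had 9.77, 16.7, and 16.7 CPM. OIR mouse 6 and treated OIR mouse 2 lay within the control range and the other 4 mice were above it. The log2 fold change was 0.34 in OIR against control (SE 0.27, 95% interval -0.27 to 0.96), 0.53 in treated OIR against control (SE 0.27, 95% interval -0.09 to 1.15), and 0.19 in treated OIR against OIR (SE 0.27, 95% interval -0.43 to 0.80), the last being 0.43 without treated OIR mouse 2. The receptors therefore parted within groups. The ratio of Notch1 to Notch4 per length was 0.805 to 1.64 in control mice and 1.01 and 0.898 in treated OIR mice 5 and 10, and it reached 4.88 in OIR mouse 6 and 6.11 in treated OIR mouse 2.

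The sequence upstream of the start was read for Notch4, Dll4, and Robo4, vessel genes that were lowest of their group in both OIR mouse 6 and treated OIR mouse 2. Jag1 and Unc5b were also lowest in OIR mouse 6, but not in treated OIR mouse 2. Notch4 and Dll4 are printed as a pair that differs in matches, so their contrast was chosen with its outcome known. Capitals mark AGGAA or its reverse complement TTCCT, a form of the core bound by ETS factors, a family active in endothelium. The stretches end at the base before the annotated gene and are from RefSeq (GRCm38.p6), + strand, at chr17:34564045-34564267 for Notch4 and chr2:119325534-119325783 for Dll4.
Notch4: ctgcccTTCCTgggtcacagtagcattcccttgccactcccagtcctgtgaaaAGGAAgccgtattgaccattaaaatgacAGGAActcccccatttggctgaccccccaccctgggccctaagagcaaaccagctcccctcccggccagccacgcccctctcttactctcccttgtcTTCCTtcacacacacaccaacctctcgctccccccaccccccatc
Dll4: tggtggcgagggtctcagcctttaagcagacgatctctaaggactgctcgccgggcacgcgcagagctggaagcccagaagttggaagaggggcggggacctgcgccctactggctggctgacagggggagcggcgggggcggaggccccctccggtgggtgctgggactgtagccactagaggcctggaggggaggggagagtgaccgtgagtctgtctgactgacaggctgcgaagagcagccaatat
The Notch4 stretch held 4 matches and the Dll4 stretch held 0. The Robo4 stretch of 175 bases, not printed, also held 0. Windows of 300 bases around the start were searched on both strands. This form was present in 66.7% of the 32851 promoters tabulated and in 5 of the 7 member genes that had an entry (Esm1, Jag1, Notch1, Notch4, and Robo4). The RBPJ core TGGGAA was present in 25.6% of all windows and the HIF core, searched as ACGTG alone, in 19.6%. Neither of these was found in the windows of these 7 genes. The other form of the HIF core, GCGTG, was not searched, and its reverse complement CACGC stands in both printed stretches. Both the ETS and RBPJ cores as searched hold GGAA, with a different base before it. GGAA after a base other than A was not counted as an ETS match, and it stands in the printed Dll4 stretch. A match describes letters and not binding, and no match says only that these letters are not in this window.

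Hey1 (ENSMUSG00000040289, chromosome 3, 8663359 to 8667256) encodes a repressor switched on by Notch. It was at 20.8, 24.1, and 30.4 CPM in control mice 1, 6, and 7, at 22.1, 17.0, and 21.1 CPM in OIR mice 3, 5, and 6, and at 24.3, 23.9, and 25.8 CPM in treated OIR mice 2, 5, and 10. OIR mice overlapped control, and all treated OIR mice were above all OIR mice and inside the control range. Fitted by edgeR, the log2 fold change was -0.32 in OIR against control (SE 0.17, 95% interval -0.70 to 0.05, edgeR adjusted p = 0.269), -0.02 in treated OIR against control (SE 0.16, 95% interval -0.40 to 0.35), and 0.30 in treated OIR against OIR (SE 0.17, 95% interval -0.07 to 0.67).

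Hes1 (ENSMUSG00000022528, chromosome 16, 30064384 to 30067796), the other Notch effector, was at 24.9, 31.5, and 29.9 CPM in control mice 1, 6, and 7. It was at 27.3, 26.5, and 34.5 CPM in OIR mice 3, 5, and 6, and at 25.7, 23.5, and 25.7 CPM in treated OIR mice 2, 5, and 10. All treated OIR mice were below all OIR mice and overlapped control mouse 1, and OIR mouse 6 was the highest. The log2 fold change was 0.03 in OIR against control (SE 0.14, 95% interval -0.29 to 0.35), -0.20 in treated OIR against control (SE 0.14, 95% interval -0.52 to 0.12), and -0.24 in treated OIR against OIR (SE 0.14, 95% interval -0.56 to 0.08). Hey1 and Hes1 thus had opposite signs with the HIF inhibitor, neither past the test. An OIR effect on Hes1 of more than 0.35 in log2, in either direction, lies outside its 95% interval.

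Unc5b (ENSMUSG00000020099, chromosome 10, 60762593 to 60831581) encodes a netrin receptor of tip cells. Its values were 22.2, 17.5, and 12.4 CPM in control mice 1, 6, and 7, then 30.3, 21.9, and 17.5 CPM in OIR mice 3, 5, and 6, and 44.4, 38.3, and 37.7 CPM in treated OIR mice 2, 5, and 10. OIR and control mice overlapped, and all 3 treated OIR mice were above the other 6 retinas. Fitted by edgeR, the log2 fold change was 0.41 in OIR against control (SE 0.24, 95% interval -0.14 to 0.96, edgeR adjusted p = 0.335). Against control, treated OIR mice differed by 1.20 (SE 0.25, 95% interval 0.65 to 1.76, edgeR adjusted p = 0.102), with an adjusted p of 0.00119 in DESeq2 on these 2 groups and 0.0186 in limma-voom. Set against the OIR mice, treated OIR mice differed by 0.79 (SE 0.24, 95% interval 0.24 to 1.34, edgeR unadjusted p = 0.00993, adjusted p = 0.984). Without treated OIR mouse 2 these became 1.12 and 0.74.

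Robo4 (ENSMUSG00000032125, chromosome 9, 37401897 to 37415115) encodes an endothelial receptor that keeps vessels stable. It was at 6.95, 5.45, and 7.54 CPM in control mice 1, 6, and 7, at 15.5, 6.48, and 3.82 CPM in OIR mice 3, 5, and 6, and at 4.63, 11.6, and 10.8 CPM in treated OIR mice 2, 5, and 10. OIR mouse 6 and treated OIR mouse 2 were the lowest of all retinas and OIR mouse 3 the highest, so the OIR mice spanned the whole range. The log2 fold change was 0.37 in OIR against control (SE 0.50, 95% interval -0.77 to 1.50), 0.44 in treated OIR against control (SE 0.50, 95% interval -0.70 to 1.58), and 0.07 in treated OIR against OIR (SE 0.50, 95% interval -1.06 to 1.21). Without treated OIR mouse 2 the values for treated OIR mice were 0.76 against control and 0.41 against OIR, and without treated OIR mouse 5 the value against control was 0.22.

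**Figure D3:**
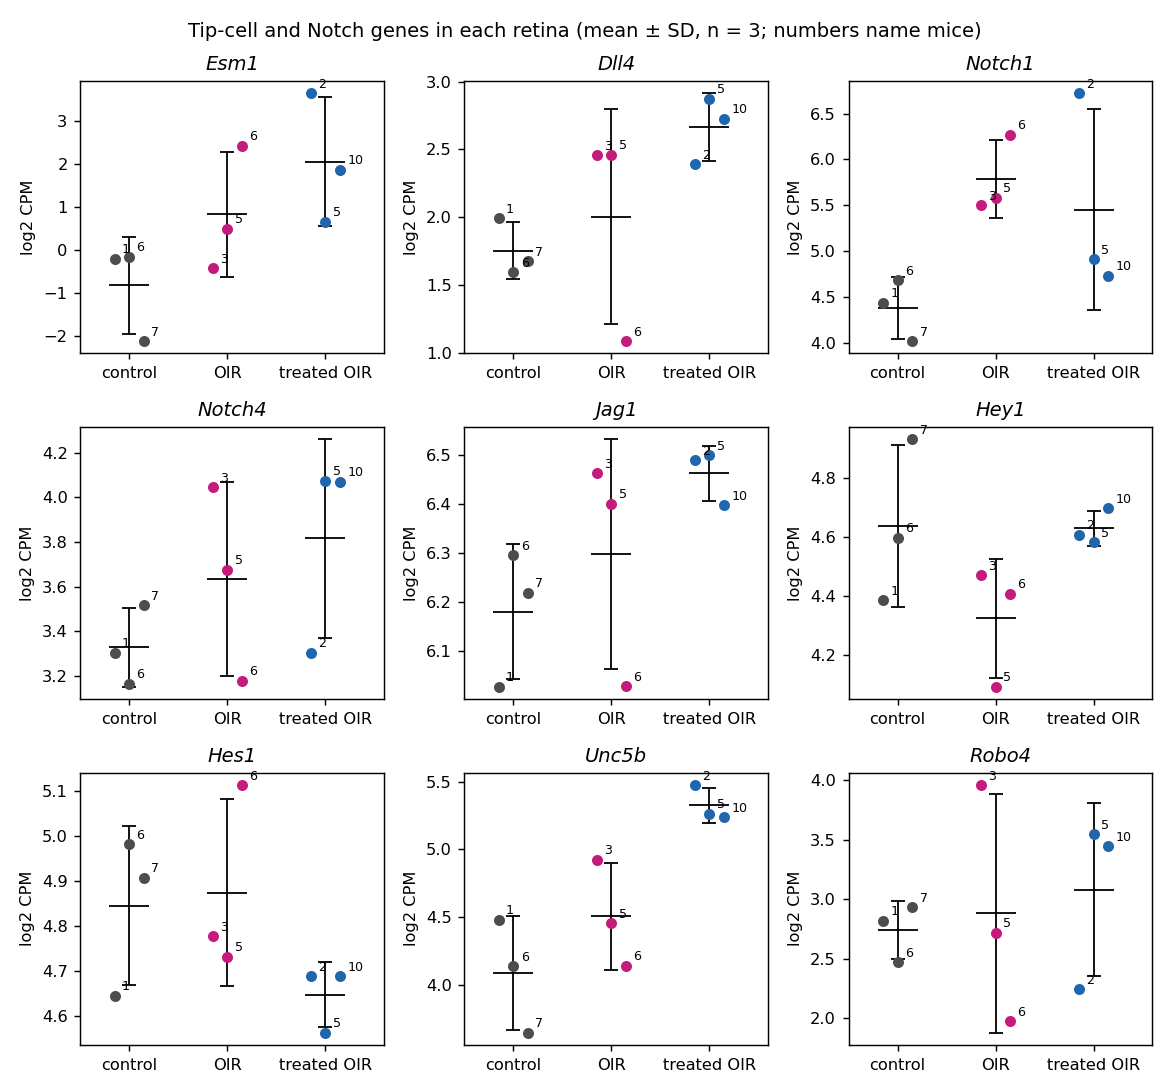
Log2 CPM of each gene in each retina, with 1 point per mouse numbered as in its label, bars at the group mean and SD (n = 3), and a separate vertical scale in each panel. OIR mouse 6 and treated OIR mouse 2 are highest of their groups for Esm1 and Notch1 and lowest for Dll4, Notch4, and Robo4, while the 3 treated OIR mice are above all others for Unc5b.

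Over the 9 retinas, with differences between groups included, the 9 genes ranged from steady to variable. The SD of log2 CPM over the 9 mice was 0.18 for Hes1, 0.19 for Jag1, and 0.23 for Hey1, below the median of 0.31 over all genes. It was 0.39 for Notch4, 0.59 for Dll4, 0.62 for Unc5b, 0.65 for Robo4, 0.88 for Notch1, and 1.73 for Esm1, the last above 99.1% of all genes. Within the OIR and treated OIR groups, Esm1 and Notch1 were highest and Dll4, Notch4, and Robo4 lowest in the same retinas, OIR mouse 6 and treated OIR mouse 2, which also had the lowest endothelial and highest injury-response levels.

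When each gene was set against the mean log2 CPM of the 18 endothelial markers in the same retina, the SD within OIR mice went from 1.0 to 0.37 for Robo4 and from 0.79 to 0.26 for Dll4, and it went from 0.42 to 1.20 for Notch1 and from 1.46 to 2.24 for Esm1. Within treated OIR mice the SD went from 0.73 to 0.19 for Robo4 but from 0.25 to 0.68 for Dll4, so a narrower spread was not seen for Dll4 in both groups. On this relative scale Dll4 averaged -2.08 in control and -1.64 in OIR mice, while the treated OIR values were -0.57 in mouse 2 and -1.69 and -1.78 in mice 5 and 10. Unc5b averaged 0.26 in control and 0.87 in OIR mice, while the treated OIR values were 2.52 in mouse 2 and 0.70 and 0.73 in mice 5 and 10. For both genes treated OIR mice 5 and 10 thus lay below the OIR mean and above the control mean, and treated OIR mouse 2 alone lay above all OIR mice. The Unc5b values of OIR mice 3, 5, and 6 were 0.60, 0.65, and 1.35, so treated OIR mice 5 and 10 lay above OIR mice 3 and 5. For Dll4 they lay within the OIR range of -1.87 to -1.35. Over all genes tested, the share at an unadjusted p below 0.05 in edgeR was 23.8%, 18.6%, and 4.69%, and the share called by DESeq2 on 2 groups was 16.2%, 2.38%, and 0.454%, in OIR against control, treated OIR against control, and treated OIR against OIR. Over the whole endothelial list, 0 of 18 genes were called by edgeR in any comparison, while 3, 4, and 1 had an unadjusted p below 0.05 and DESeq2 on 2 groups called 3, 2, and 0, in the same order. Its summed level was 345 to 379 CPM in controls, 266 to 552 CPM after OIR, and 256 to 627 CPM with the HIF inhibitor. The summed injury-response level was 121 to 744 CPM in controls, 677 to 2143 CPM after OIR, and 210 to 2751 CPM with the HIF inhibitor, and 0 of its 6 genes were called by edgeR, with 3, 1, and 0 at an unadjusted p below 0.05 and 2, 0, and 0 called by DESeq2 on 2 groups. The Müller glial list summed to 6956 to 7750 CPM in controls, 8795 to 11254 CPM after OIR, and 5888 to 7231 CPM with the HIF inhibitor, and 1 of its 10 genes, Slc1a3 (a glutamate transporter gene), was called higher in OIR than in control by edgeR (0.433% of all genes), at a log2 fold change of 0.95 (edgeR adjusted p = 0.0447). DESeq2 on the 2 groups called 4 of the 10 higher there. Between treated OIR and OIR mice 9 of the 10 Müller glial genes had negative log2 fold changes, 3 of them at an unadjusted p below 0.05, and DESeq2 called 1 lower, the lipoprotein gene Apoe. Microglial genes summed to 89.0 to 288 CPM in control, 172 to 301 CPM in OIR, and 105 to 111 CPM in treated OIR mice. Between treated OIR and OIR mice the median log2 fold change of these 7 genes was -1.13, with 0 called by edgeR, 5 lower at an unadjusted p below 0.05, and 4 called lower by DESeq2 on the 2 groups. Red cell genes summed to 74.6 to 133 CPM in control, 9.45 to 58.1 CPM in OIR, and 53.8 to 169 CPM in treated OIR mice. All 5 had negative log2 fold changes in OIR against control, with a median of -1.55. Of these, 0 were called by edgeR, 5 had an unadjusted p below 0.05 (23.8% of all genes), and 2 were called lower by DESeq2 on the 2 groups (16.2% of all genes). The part of these cell types in the differences of the 9 genes was not tested.

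**Figure D4:**
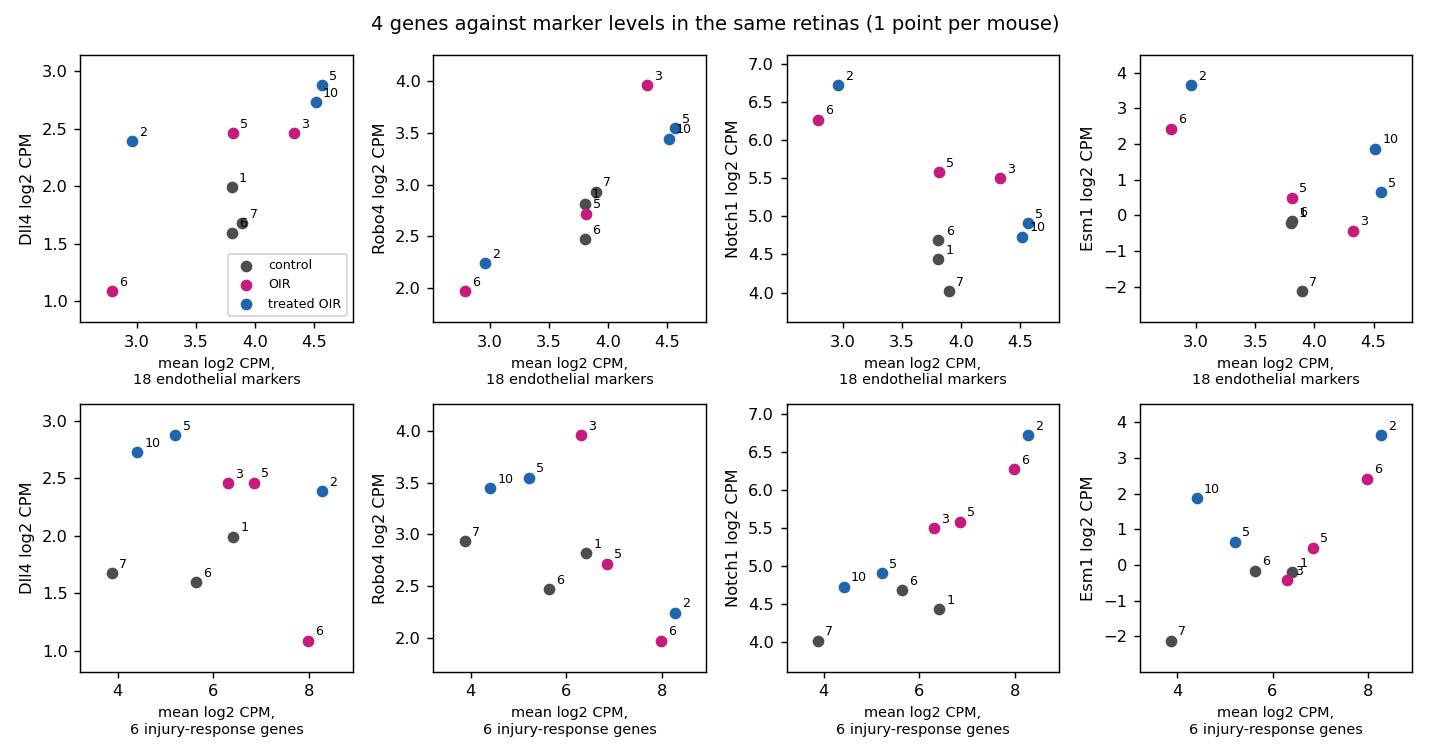
Log2 CPM of Dll4, Robo4, Notch1, and Esm1 (vertical axes) against the mean log2 CPM of 18 endothelial markers (upper panels) and of 6 injury-response genes (lower panels), with 1 point per mouse. OIR mouse 6 and treated OIR mouse 2 lie at endothelial means of 2.79 and 2.96, below the other 7 retinas, with low Robo4 and high Notch1 and Esm1.

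Other genes of the Notch pathway were read from a list of 30, which held further ligands, receptors, glycosyltransferases, processing enzymes, and targets. None was called by edgeR in any comparison. In OIR against control 9 were higher and 5 lower at an unadjusted p below 0.05, with a median log2 fold change of 0.14, and DESeq2 on the 2 groups called 6 higher and 3 lower. Over all genes these shares were 23.8% and 16.2%. The lowest p-values were those of Hey2, a HEY repressor of arterial endothelium, with a log2 fold change of 0.93 (SE 0.21, edgeR adjusted p = 0.0623), and Pofut1, which adds fucose to Notch receptors, at 0.47 (SE 0.11, edgeR adjusted p = 0.0662). At that level 8 were higher and 3 lower in treated OIR against control, led by Pofut1 at 0.45 (SE 0.11) and the fringe enzyme gene Rfng at -0.36 (SE 0.09), both with an edgeR adjusted p of 0.126, and DESeq2 on the 2 groups called 1 higher and 1 lower (18.6% and 2.38% of all genes). Between treated OIR and OIR mice 0 of 30 had an unadjusted p below 0.05 in edgeR and 0 were called by DESeq2, and the lowest p-values were those of Hey2 at -0.44 (SE 0.21) and Notch2 at -0.37 (SE 0.20).

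Of 25 further tip-cell genes, edgeR called 3 higher in OIR than in control, against 0.433% of all genes. They were Apln, which encodes the peptide apelin, at a log2 fold change of 2.91 (edgeR adjusted p = 0.0407), the VEGF receptor gene Kdr at 1.10 (edgeR adjusted p = 0.0407), and Adm, which encodes adrenomedullin, at 2.84 (edgeR adjusted p = 0.0496). Apln was the only one that edgeR called in treated OIR against control, at 3.79 (edgeR adjusted p = 0.0490), against 0.0114% of all genes, and there 17 of 25 were higher and 0 lower at an unadjusted p below 0.05 (18.6% of all genes in either direction). DESeq2 on the 2 groups called 6 of the 25 higher in OIR against control and 9 higher in treated OIR against control, beside 16.2% and 2.38% of all genes. Several genes of this list, with Apln, Adm, and Kdr among them, are in the set that the study chose on these samples, so their direction is not independent evidence. Between treated OIR and vehicle-injected OIR retinas edgeR and DESeq2 called 0 of 25, with 5 higher and 1 lower at an unadjusted p below 0.05 (4.69% of all genes), and the lowest p-values were those of Rgcc, a regulator of the cell cycle, at 0.99 (SE 0.27) and the basement membrane collagen gene Col4a1 at 1.20 (SE 0.42), the latter being 0.70 without treated OIR mouse 2. Over the list, log2 fold changes had a median of 0.63, 1.02, and 0.48 in these 3 comparisons.

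Of 15 other guidance genes, namely netrins, slits, and their receptors, 0 were called by edgeR in any comparison. In OIR against control 3 were higher and 6 lower at an unadjusted p below 0.05, and DESeq2 on the 2 groups called 2 higher and 4 lower, beside 23.8% and 16.2% of all genes. The lowest p-values were those of Robo3, a roundabout receptor of crossing axons, at -2.82 (SE 0.65, edgeR adjusted p = 0.0644) and the netrin receptor gene Unc5c at 0.64 (SE 0.16, edgeR adjusted p = 0.0701). In treated OIR against control 1 was higher and 1 lower at that level (Unc5c at 0.37 and Unc5a at -0.36), and in treated OIR against OIR 2 were higher and 1 lower, (18.6% and 4.69% of all genes in turn), led by Robo3 at 2.01 (SE 0.66) and the netrin gene Ntn4 at -0.67 (SE 0.26). DESeq2 on 2 groups called none in either.

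The genes with profiles most like those of 4 members were found by the root mean square (RMS) difference of log2 CPM over the 9 mice, after each gene was centered on its mean. For Dll4 they were Itga1, Pdgfb, and Emcn, at 0.20 to 0.21, against a median of 0.63 over all genes. For Notch1 they were Kremen1, Chrnb4, and Myo10, at 0.12 to 0.17, against 0.87. For Esm1 they were Cdsn, Ogn, and Celsr1, at 0.63 to 0.70, against 1.64, larger distances for the member with the widest spread. For Hes1 they were Osbpl5, Cdc42ep4, and Cdk2ap1, at 0.06 to 0.08, against 0.34, a small distance for a gene that varied little. Among the 9 genes themselves Hey1 and Hes1 were closest (0.26), and Jag1 lay near Hey1 (0.27). Notch4 was nearest to Jag1 (0.29), then to Robo4 (0.32) and Dll4 (0.34), and Esm1 and Robo4 were farthest apart (1.96). All these points share libraries, so the distances are descriptions of 9 retinas.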

How the data were processed

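The authors deposited 1 table of whole-number read counts per gene, without normalization, with a gene length and 1 column per mouse. The submitters' processing notes name CASAVA and HISAT, and the counting tool, genome build, and use of strand are not given in the sources used here. GENCODE M21 holds 54495 of the identifiers, 98.3% of them at an identical position, so coordinates are on GRCm38.

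Counts were fitted with edgeR 4.0.16 (R 4.3.3) by its quasi-likelihood test, with TMM scaling and the default filter by group (17540 genes), all 9 mice, 1 mean per group, and Benjamini-Hochberg adjustment over all genes tested. A gene was called at an adjusted p below 0.05. SE was the log2 fold change over the square root of F, and intervals are 95%. Log2 CPM used a prior count of 2, and RPKM used the deposited length. Groups come from the sample labels, and p-values measure the spread among mice. A chi-square per degree of freedom set the difference between 2 mice of a group against counting error. It was 18.5 to 38.2 in control pairs and 19.8 to 41.8 in OIR pairs. In treated OIR mice it was 11.6 between mice 5 and 10, and 222 and 265 in the pairs with mouse 2. The members and gene lists were chosen with earlier results of these data known. Named were the 9 members, for each of the Notch, tip-cell, and guidance lists the genes called or else the 2 with the lowest p, and the 3 profiles most like Esm1, Dll4, Notch1, and Hes1. Slc1a3 and Apoe were named after its value was seen.

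Alternatives were DESeq2 1.42.0, limma 3.58.1 (voom with sample weights), edgeR on 2 groups, other scalings, filters, and thresholds, a prior count of 0.5 for levels, each mouse left out, and sex as a covariate. On simulated counts for OIR against control (17275 genes), edgeR recovered 22 of 100 genes changed 2-fold and 96 of 100 changed 4-fold. The simulation gave every gene the same spread and changed only genes above a minimum level. These rates need not hold for more variable genes such as Esm1 and Notch1.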

Additional observations from a re-analysis of the deposited data

How the results depend on the processing

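No paired analysis was run, because each group holds its own mice and the labels name no pairs. The count of members called in OIR against control was 0 in edgeR over all 9 mice and 1 (Notch1) in edgeR on the 2 groups alone (adjusted p = 0.0153), DESeq2 on all 9 mice, DESeq2 on the 2 groups, and limma-voom. It was 0 to 1 over the fits that each left out 1 mouse, with the 1 obtained without treated OIR mouse 2. Over all genes, edgeR on the 2 groups alone called 1771 of 17166 in OIR against control. In treated OIR against control the count of members called was 2 with DESeq2 on all 9 mice, 2 with DESeq2 on the 2 groups, and 1 with limma-voom. In treated OIR against OIR it was 0 under every alternative run. The causes of these differences were not tested.

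Signs changed for small differences that were not called. In OIR against control, the log2 fold change of Hes1 was -0.058 with limma-voom and -0.10 (without OIR mouse 6) to 0.10 over the fits leaving out 1 mouse, negative also without control mouse 1 (-0.06), and that of Robo4 was -0.37 (without OIR mouse 3) to 0.72. In treated OIR against control, that of Hey1 was 0.0084 with limma-voom, 0.0079 with sex as a covariate, and 0.14 without control mouse 7. In treated OIR against OIR, that of Notch1 was -0.98 (without treated OIR mouse 2) to 0.25, at 0.21 without OIR mouse 6, 0.21 without treated OIR mouse 5, and 0.25 without treated OIR mouse 10, and that of Notch4 was -0.013 (without OIR mouse 6) to 0.43. Robo4 there was up to 0.81, and was -0.09 without OIR mouse 5, -0.28 without OIR mouse 6, -0.15 without treated OIR mouse 5, and -0.08 without treated OIR mouse 10.

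Notch1 in OIR against control was 1.14 to 1.59 and Unc5b in treated OIR against control was 1.01 to 1.42 over 19 alternatives each. Smaller differences in OIR against control moved more when 1 mouse was left out, with Dll4 at 0.16 to 0.71 and Unc5b at 0.18 to 0.63. Sex as a covariate, read from Xist and Y-linked genes and chosen after seeing the data, gave 0 members called in each comparison. That fit also called 0 of all 17540 genes tested in each comparison. Requiring 10 counts in every mouse left no value for Esm1. Over all genes, edgeR called 0 genes in OIR against control in 7 of the 9 fits that left out 1 mouse and 2272 without treated OIR mouse 2. Each group holds 3 mice, and Esm1 had as few as 2 reads in a mouse.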
